A study of Mus musculus with 6 samples.

Results

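The genes described here encode membrane carriers of amino acids and close relatives in islets of the mouse pancreas. They are the rows of the deposited gene table that carry the names of the solute carrier families SLC1, SLC3, SLC6, SLC7, SLC36, SLC38 and SLC43, and they were chosen by name, not by value. There were 58 of them among 48321 gene names: 18 of SLC6, 14 of SLC7, 10 of SLC38, 7 of SLC1, 4 of SLC36, 3 of SLC43 and 2 of SLC3. RNA was sequenced from isolated islets of wild-type C57BL6 mice in 2 diet groups of 3 samples each. The chow group ate normal chow by its diet label, though the treatment text of these samples also names the high-fat diet. The high-fat group began at the age of 3 months to eat food in which fat supplied 60 percent of the energy and did so for 4 months. The labels give no age for the chow mice, no sex, and no word on whether a sample was 1 mouse or a pool, so the p-values speak only of spread between these libraries, part of which can be technical. The column of chow replicate 2 was the mean of chow replicates 1 and 3 for 48321 of 48321 names, so it was left out, which leaves n = 2 for chow and n = 3 for the high-fat diet.

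Amino acid carriers couple uptake to sodium or protons, or swap one amino acid for another across the membrane. SLC38 and many SLC6 proteins load neutral amino acids with sodium, the cationic carriers of SLC7 pass arginine and lysine, and the light chains of SLC7 work as exchangers once bound to a heavy chain of SLC3. In beta cells, leucine and glutamine feed metabolism and mTOR signalling, and arginine depolarizes the cell. In alpha cells, amino acids are a main stimulus of glucagon release. The title of the series speaks of palmitic acid, mTOR and AKT, and the diet comparison asks how islet transcripts differ after high-fat feeding.

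The libraries were not alike in ways that bear on every comparison below. Values are CPM (reads of a gene scaled to a common library total), and the implied totals lay between 18800000 and 35100000 reads. The CPM of all genes in the table did not add to the same sum in each library. The sums were 841705 and 674482 in chow and 963615, 832416 and 879301 in high-fat replicates 1, 2 and 3. Beta cell markers made up 6.85% to 11.9% of the summed CPM of the table in the 5 libraries, and all 10 were above 0 in each. Markers of acinar cells, which make digestive enzymes in the surrounding pancreas, made up 35% and 13.2% in the chow libraries and 13.2%, 1.79% and 5.33% in high-fat replicates 1, 2 and 3 (means 24.1% ± 15.4 and 6.78% ± 5.85, SD, n = 2 and 3, exact two-sided permutation p = 0.2, the smallest this design can give). Rn7sk, a small RNA without a poly(A) tail, had 6.27 and 13.3 CPM in chow against 3626, 3192 and 3935 CPM after high-fat feeding, so whatever set these libraries apart and the diet cannot be told apart. In bulk RNA, fewer cells of a type and less RNA per cell cannot be told apart either.

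A few carriers made up most of the transporter transcripts. Of the 58 genes, 8 averaged at least 100 CPM over the 5 libraries, 13 lay from 10 to 100 CPM, 11 from 1 to 10 CPM and 26 below 1 CPM, and the top 10 held 84.3% of their summed CPM. Levels were compared between genes per kilobase of the longest GENCODE transcript, a rough guide, since the transcripts in use may be shorter. On that scale the highest mean level was that of Slc38a10, a member of the sodium-coupled neutral carrier family, at 57.1 CPM per kb, with a range over the libraries of 50 to 63.1. Slc38a4, which carries small neutral and some cationic amino acids, came next at 53.6 (38 to 74.4). Slc7a14, a relative of the cationic carriers placed in lysosomes, was at 40.7 CPM per kb (30.3 to 45.7). The heavy chain gene Slc3a2 was at 40.5 (35.9 to 47.5) and the taurine carrier gene Slc6a6 at 40.1 (38.4 to 43.2). The ranges of neighbours in this order overlapped. Slc38a10 had a higher level per kb in its lowest library than Slc7a14, Slc3a2 or Slc6a6 in their highest. Below them came Slc7a2 at 30.2 CPM per kb (24.6 to 36.2), Slc7a8 at 29.3 (27.1 to 32.8), Slc43a2 at 27.4 (24 to 30.4), Slc7a5 at 21.9 (19.2 to 25.1) and Slc38a2 at 21.4 (15.6 to 24.4). Slc6a17 at 12.8 CPM per kb spanned the widest relative range of the top 11, 6.59 to 16.7.

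**Figure D1:**
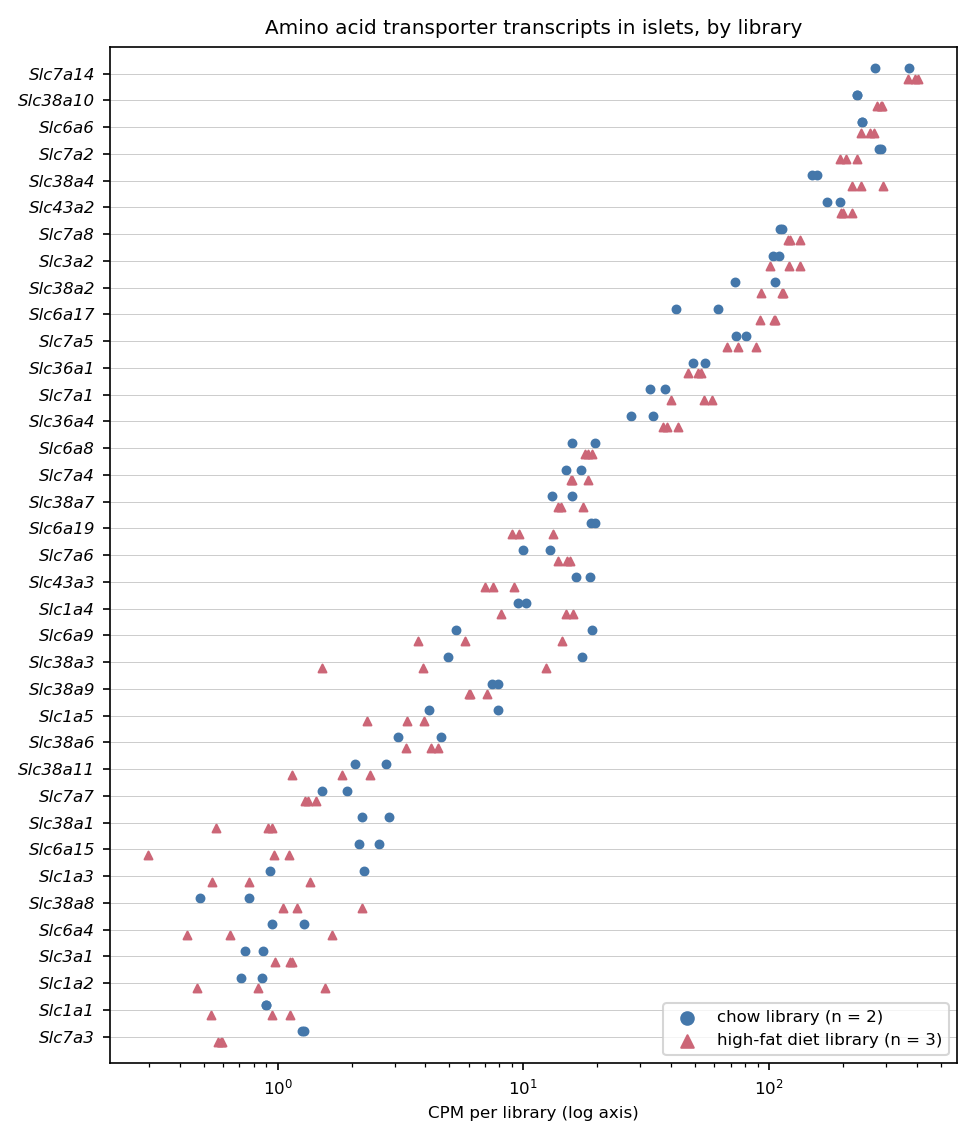
CPM of the 37 tested transporter genes on a log axis, 1 symbol per library, with chow libraries as blue circles (n = 2) and high-fat diet libraries as red triangles (n = 3), sorted by mean. The genes span from Slc7a14, with 269 to 406 CPM, to Slc7a3, with 0.571 to 1.28 CPM, and the diets overlap in 18 of the 37.

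Differences between the diets were tested for the 37 members with a mean of at least 0.5 CPM, in a limma fit over all 16939 genes above that level. At a Benjamini-Hochberg adjusted p below 0.05, 2 members rose on the high-fat diet, Slc6a17 and Slc38a4, and 6 fell, Slc43a3, Slc38a1, Slc6a19, Slc6a15, Slc7a2 and Slc7a3. The 8 called members were 21.6% of those tested, beside 23.7% of all genes tested, so transporters as a class were called about as often as other genes. By direction, 5.41% of the members rose beside 14.9% of all genes, and 16.2% fell beside 8.78% of all genes. The median log2 fold change was 0.06 over the members and 0.05 over all genes tested. All 3 high-fat values were above, or all below, both chow values in 19 of the 37 members, 51.4% beside 55.4% of all genes. The counts rested on single libraries: leaving out chow replicate 1 gave 1 higher and 2 lower, leaving out chow replicate 3 gave 6 and 5, and the counts were 2 and 3, 4 and 3, and 2 and 2 without high-fat replicates 1, 2 and 3. The matching percentages of all genes were 7.94 and 4.61, 17.5 and 8.32, 8.5 and 4.66, 6.91 and 4.04, and 7.21 and 4.4. Scaling to a library size that omits acinar and insulin transcripts, called acinar-free scaling below, moved the median of all genes from 0.05 to -0.43. That of the members moved from 0.06 to -0.47. Then 0 members were higher and 20 lower, beside 4.43% and 54.0% of all genes. This scaling also takes in the unequal summed CPM of the libraries. Its factors were 0.775 and 0.806 in chow and 1.18, 1.15 and 1.18 in high-fat replicates 1, 2 and 3. Chow replicate 3 and high-fat replicate 1 differed in factor though acinar markers made up 13.2% of both. The part of the acinar transcripts in the shift was not tested.

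**Figure D2:**
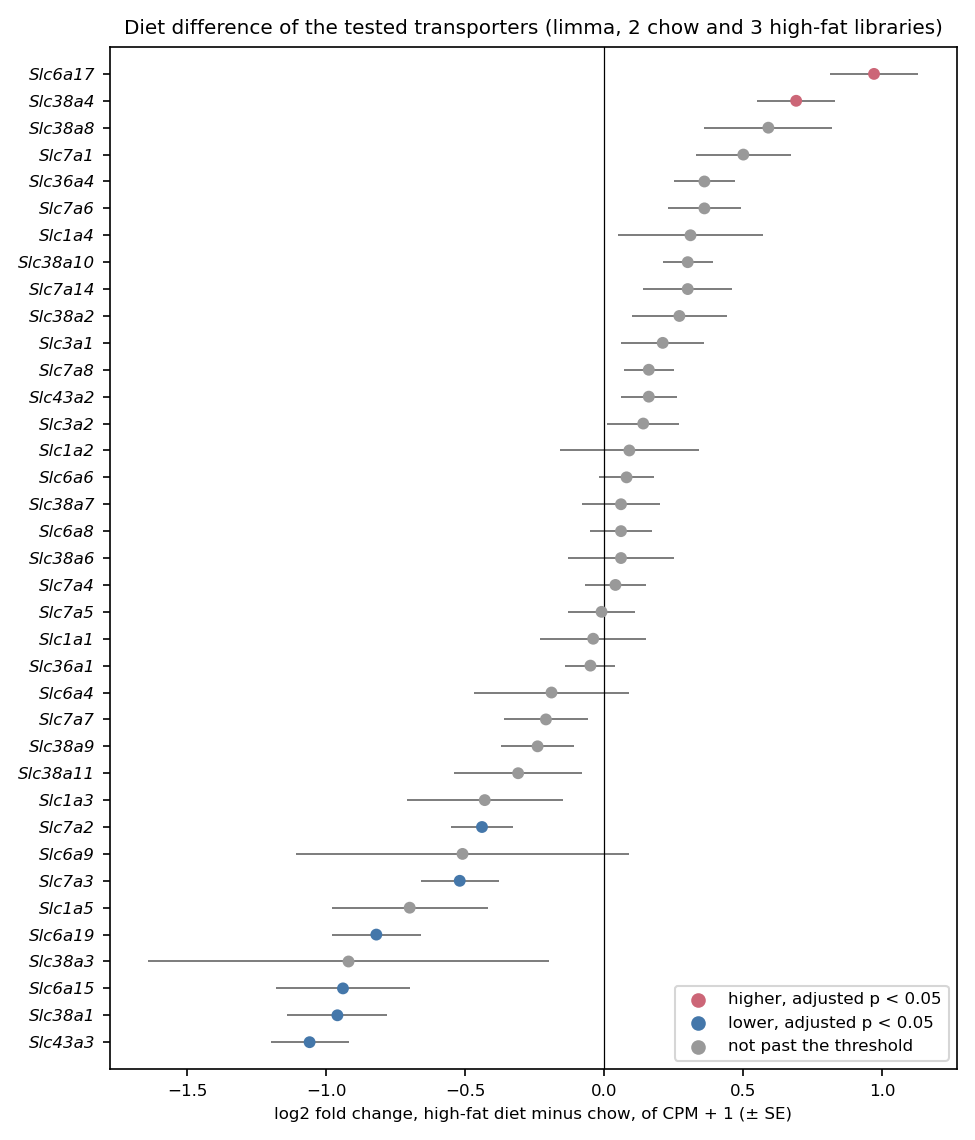
Log2 fold change of CPM + 1, high-fat diet minus chow, for the 37 tested members, with bars of 1 standard error from limma; red marks members called higher, blue those called lower and grey those past no threshold. The values run from -1.06 for Slc43a3 to 0.97 for Slc6a17, and Slc38a3 and Slc6a9 have the widest bars, 0.72 and 0.60.

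The summed CPM of all 58 members was 2046 and 2215 in the chow libraries and 2372, 2296 and 2526 in the high-fat libraries. The high-fat mean was higher by 268 CPM (mean 2131 ± 119 against 2398 ± 117, SD, n = 2 and 3, two-sided exact permutation p = 0.2, or 0.2 when adjusted over 3 tests). The groups did not overlap, but this difference became -645 CPM under acinar-free scaling. By group, the SLC38 genes held 24.3% and 24% of the members' CPM in chow and 28.5%, 26.8% and 29% on the high-fat diet. The cationic carriers and relatives, Slc7a1 to Slc7a4 and Slc7a14, held 29.5% and 32% in chow and 27.2%, 28.1% and 28.1% on the high-fat diet. Slc7a14, whose place is that of a relative, supplied 269 and 372 of their 605 and 709 CPM in chow. On the high-fat diet it supplied 369, 392 and 406 of 646, 645 and 710 CPM. These shares add to 1 total, so a larger share of one group lowers the others.

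The upstream sequences of both genes that rose are shown because they differ in CpG number, and capitals mark each CpG (RefSeq, GRCm38.p6, the 250 bases before the farthest upstream of the starts listed, 5′ to 3′ on the gene's strand). That of Slc6a17 lies at chr3:107518019-107518268 on the minus strand and holds 18 CpG, and that of Slc38a4 lies at chr15:97055957-97056206 on the minus strand and holds 3. The median over 32851 promoters in the same table was 6, with quartiles of 2 and 16.
Slc6a17: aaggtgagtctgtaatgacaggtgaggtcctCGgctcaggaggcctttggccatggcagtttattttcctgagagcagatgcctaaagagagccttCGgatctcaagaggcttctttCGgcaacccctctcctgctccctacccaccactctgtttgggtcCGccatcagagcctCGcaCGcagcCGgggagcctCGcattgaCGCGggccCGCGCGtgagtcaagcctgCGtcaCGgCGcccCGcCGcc
Slc38a4: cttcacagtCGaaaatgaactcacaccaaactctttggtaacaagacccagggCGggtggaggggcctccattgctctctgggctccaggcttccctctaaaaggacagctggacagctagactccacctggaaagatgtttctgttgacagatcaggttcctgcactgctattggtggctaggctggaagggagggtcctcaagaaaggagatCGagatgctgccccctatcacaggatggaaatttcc

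The 300 bases around each start (250 before and 50 after) were also searched on both strands for TGATGNAA, the composite element that ATF4, the transcription factor of the amino acid response, binds with C/EBP proteins. It occurred in 3.97% of the 32851 promoters, in at least 1 promoter of 4.51% of the genes, and in 2 of the 40 members found in the table, Slc1a4 and Slc7a7. Neither of the sequences above holds it. Of the 8 called members, only 3 were in the promoter table, and the others were not searched. The stretches are printed with the element in capitals, as read on the gene's strand, where the first is its reverse complement. They lie on the minus strand at chr11:20332699-20332728, chr14:54418067-54418096 and chr14:54417927-54417956.
Slc1a4: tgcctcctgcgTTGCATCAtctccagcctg
Slc7a7, upstream: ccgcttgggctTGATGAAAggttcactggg
Slc7a7, at the start: gacctagaagcTGATGCAAcagcttccccg
Slc1a4 and Slc7a7 did not pass the test for diet, and their values are given below.

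Counts by family are to be read beside the 14.9% of all genes that rose and the 8.78% that fell. Among the sodium-coupled neutral carriers of SLC38, 10 of 10 were tested, 1 rose and 1 fell. Slc38a4 was at 149 and 157 CPM in chow and at 238, 217 and 292 CPM on the high-fat diet. All 3 high-fat values were above both chow values, with means of 153 ± 5.08 and 249 ± 38.9 CPM (SD, n = 2 and 3), a log2 fold change of 0.69 ± 0.14 (SE, limma adjusted p = 0.015). The call ended without chow replicate 1 (limma adjusted p = 0.0576), with no filter on low genes (0.0671), and under acinar-free scaling, where the log2 fold change was 0.13 (0.417). Less the median of all genes, the value was 0.64 as reported and 0.55 under acinar-free scaling.

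Slc38a1, a glutamine carrier best known from neurons, was at 2.21 and 2.83 CPM in chow and at 0.946, 0.916 and 0.561 CPM on the high-fat diet. The groups did not overlap, and the log2 fold change was -0.96 ± 0.18 (SE, limma adjusted p = 0.0115). The fall lost its call with no filter on low genes (0.0724). At this low level the value depends on the CPM added before the log. It was -1.40 with 0.25 CPM added and -0.69 with 2 CPM added. Among glial and neuronal markers, 4 of 7 fell and 1 rose, their summed level was 45.1 and 54.7 CPM in chow against 38.2 to 40.4 CPM after high-fat feeding, and none was at 0. Their part in the fall of Slc38a1 was not tested.

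Slc38a2, the carrier of the same system that cells raise when amino acids run short, was at 72.8 and 106 CPM in chow and at 113, 92.5 and 114 CPM on the high-fat diet. The groups overlapped (log2 0.27 ± 0.17, SE, limma adjusted p = 0.295), and the value was 0.54 (0.0353) without chow replicate 3 and near 0 (limma adjusted p = 0.99) without chow replicate 1. Slc38a10 was at 229 and 229 CPM in chow and at 286, 275 and 289 CPM on the high-fat diet, without overlap, and narrowly missed the threshold (0.30 ± 0.09, limma adjusted p = 0.0549). Under acinar-free scaling it was at -0.26 (0.0411), or 0.17 less the median of all genes. The lysosomal arginine sensor gene Slc38a9, whose protein signals to mTORC1, was at 7.92 and 7.49 CPM in chow and at 7.11, 6.08 and 6.04 CPM on the high-fat diet. Its values did not overlap either, with a log2 fold change of -0.24 ± 0.13 (limma adjusted p = 0.223).

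Slc38a3, a glutamine carrier best known from liver, kidney and brain, differed widely between libraries of 1 diet. It was at 17.3 and 4.93 CPM in chow and at 12.4, 1.51 and 3.91 CPM on the high-fat diet (log2 -0.92 ± 0.72, SE, limma adjusted p = 0.385). From the highest to the lowest library its order was that of the acinar markers by summed level. That level was 294846 and 89309 CPM in chow against 127402, 14918 and 46902 CPM on the high-fat diet. As a share of the table's summed CPM these markers stood at 13.2% in both chow replicate 3 and high-fat replicate 1. The glycine carrier gene Slc6a9 was at 19.1 and 5.30 CPM in chow and at 14.4, 3.73 and 5.82 CPM on the high-fat diet (-0.51 ± 0.60, limma adjusted p = 0.566). Chow replicate 1 and high-fat replicate 1 were the highest libraries for the acinar markers, Slc38a3 and Slc6a9. Below them Slc6a9 was higher in high-fat replicate 3 than in chow replicate 3, the reverse of the acinar order. The part of the acinar transcripts in the spread of Slc38a3 and Slc6a9 was not tested. With the acinar score, the log2 of that summed level, as a covariate the diet values were 0.59 for Slc38a3 and 0.70 for Slc6a9 (limma adjusted p = 0.141 and 0.182). The remaining SLC38 members, Slc38a6, Slc38a7, Slc38a8 and Slc38a11, lay between 0.482 and 17.5 CPM, and none passed the test.

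**Figure D3:**
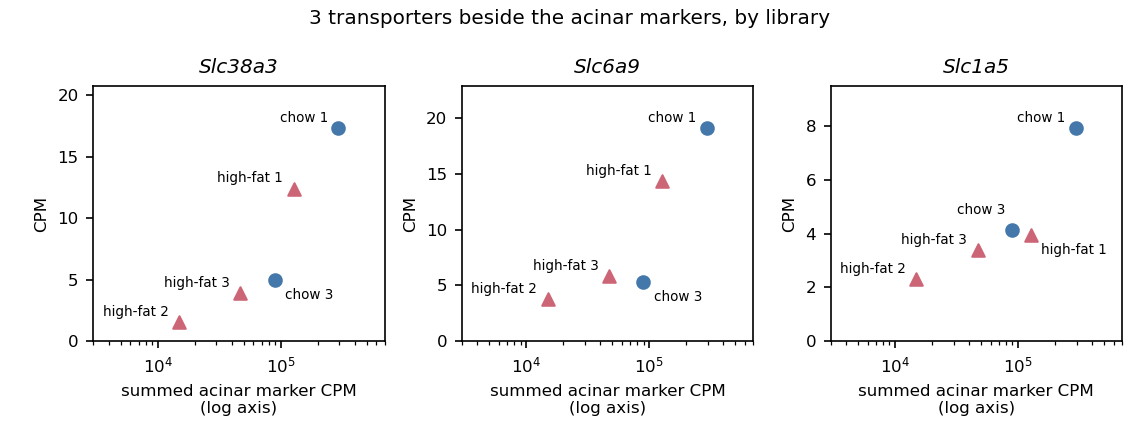
CPM of Slc38a3, Slc6a9 and Slc1a5 in each of the 5 libraries against the summed CPM of 33 acinar markers (log axis), with blue circles for chow and red triangles for high-fat diet. Chow replicate 1 is highest and high-fat replicate 2 lowest for all 3 genes, as for the acinar markers. Of the 3, only Slc38a3 follows the acinar order through all 5 libraries.

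Of the 5 cationic carriers and relatives in SLC7, 2 fell and none rose, and leaving out a single library ended both calls in most cases. Slc7a2, an arginine carrier that alpha cells use, was at 281 and 286 CPM in chow and at 206, 195 and 228 CPM on the high-fat diet. Chow values were all above high-fat values, with means of 284 ± 3.55 and 210 ± 17.2 CPM (SD, n = 2 and 3) and a log2 fold change of -0.44 ± 0.11 (SE, limma adjusted p = 0.0273). The call ended in the fit with the acinar covariate (0.108), with no filter (0.0804), and without any library but chow replicate 3 (0.0502 to 0.103). The log2 fold change itself was -0.40 with the covariate, -0.44 with no filter and -0.39 to -0.50 in the fits without 1 library. Of the alpha cell markers, 1 of 6 rose and none fell, and none was at 0 in a library. Their summed level was 10672 and 2554 CPM in chow against 11559, 12773 and 13266 CPM on the high-fat diet. Their share of the table's summed CPM was 1.27% and 0.379% in chow and 1.2%, 1.53% and 1.51% on the high-fat diet, with overlap. The alpha cell markers were lowest in chow replicate 3, the library with the highest Slc7a2. Their part in the fall was not tested.

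Slc7a1, the cationic carrier found in most cells, was at 37.9 and 32.9 CPM in chow and at 54.2, 39.9 and 58.8 CPM on the high-fat diet. The groups did not overlap, but the difference missed the threshold (log2 0.50 ± 0.17, SE, limma adjusted p = 0.0695). It was at 0.66 (0.0235) without high-fat replicate 2, at 0.75 (0.0352) with an acinar covariate and at 0.39 (0.176) without high-fat replicate 3. The ratio of Slc7a1 to Slc7a2 within a library, which no scaling changes, was 0.135 and 0.115 in chow and 0.263, 0.205 and 0.257 on the high-fat diet. That of Slc38a4 to Slc7a2 was 0.531 and 0.547 in chow and 1.16, 1.12 and 1.28 on the high-fat diet. Both ratios were chosen after the values were seen and are given as a description, with no test.

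Slc7a3, a cationic carrier best known from brain, fell from 1.28 and 1.26 CPM in chow to 0.591, 0.571 and 0.596 CPM on the high-fat diet, the smallest level among the called members. Its log2 fold change on the CPM + 1 scale was -0.52 ± 0.14 (SE, limma adjusted p = 0.0412), and the call ended when any 1 library was left out (0.0905 to 0.142). The low level also makes that value depend on the pseudocount, and it was -0.86 with 0.25 CPM added. Slc7a14 was at 269 and 372 CPM in chow and at 369, 392 and 406 CPM on the high-fat diet, with overlap (0.30 ± 0.16, limma adjusted p = 0.208). The chow libraries decided this value: it was 0.53 (0.0212) without chow replicate 3 and 0.06 (0.748) without chow replicate 1. Slc7a4, a member with no settled substrate, was at 14.9 and 17.1 CPM in chow and at 15.6, 18.3 and 15.8 CPM on the high-fat diet (0.04 ± 0.11, limma adjusted p = 0.801).

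Of the heterodimeric exchangers, none of the 6 tested chains passed the test. Slc3a2, the heavy chain known as CD98, was at 110 and 104 CPM in chow and at 121, 101 and 134 CPM on the high-fat diet (log2 0.14 ± 0.13, SE, limma adjusted p = 0.445). Its light chain Slc7a5, the leucine exchanger LAT1, was at 81 and 73.3 CPM in chow and at 74.7, 67.4 and 88.3 CPM on the high-fat diet (-0.01 ± 0.12, limma adjusted p = 0.951). Slc7a8, the related light chain LAT2, was at 111 and 113 CPM in chow and at 134, 122 and 119 CPM on the high-fat diet, without overlap (0.16 ± 0.09, limma adjusted p = 0.235). Under acinar-free scaling Slc3a2, Slc7a5 and Slc7a8 were at -0.42, -0.57 and -0.41, which is 0.01, -0.15 and 0.02 less the median of all genes. Slc7a6, a light chain that swaps arginine for neutral amino acids, was at 9.95 and 12.8 CPM in chow and at 15.5, 13.9 and 15 CPM on the high-fat diet (0.36 ± 0.13, limma adjusted p = 0.0841). It was at 0.53 (0.0272) without chow replicate 3 and at 0.19 (0.337) without chow replicate 1. Slc7a7, its relative in kidney and macrophages, was at 1.92 and 1.52 CPM in chow and at 1.29, 1.33 and 1.44 CPM on the high-fat diet (-0.21 ± 0.15, limma adjusted p = 0.359). Slc3a1, the heavy chain of the kidney cystine carrier, lay between 0.736 and 1.15 CPM, and its usual partner Slc7a9 was below the limit of testing.

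The ratio of Slc7a5 to Slc3a2 within a library was 0.736 and 0.706 in chow and 0.615, 0.667 and 0.661 on the high-fat diet. All high-fat ratios were below both chow ratios. On the log2 scale the means were -0.472 ± 0.0414 and -0.628 ± 0.0636 (SD, n = 2 and 3), a difference of -0.156 (two-sided exact permutation p = 0.2, the smallest possible, or 0.2 when adjusted over 3 tests).

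Of the SLC6 family, 7 of 18 genes were tested, 1 rose and 2 fell. Slc6a17, a carrier of neutral amino acids on synaptic vesicles, showed the largest rise of the members. It was at 41.7 and 62 CPM in chow and at 106, 105 and 91.8 CPM on the high-fat diet, without overlap. The means were 51.9 ± 14.4 and 101 ± 7.77 CPM (SD, n = 2 and 3), a log2 fold change of 0.97 ± 0.16 (SE, limma adjusted p = 0.00856). The adjusted p was 0.0554 under acinar-free scaling (log2 0.41, or 0.84 less the median of all genes), 0.0534 with no filter (0.97) and 0.0519 with the acinar covariate (0.83). Of the beta cell markers, 4 of 10 rose and none fell. Their summed level was 57623 and 80115 CPM in chow against 87653 to 95727 CPM after high-fat feeding. Their share of the table's summed CPM was 6.85% and 11.9% in chow and 9.12%, 11.5% and 9.97% on the high-fat diet, with overlap. Their part in the rise was not tested.

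Slc6a19, the sodium-coupled neutral carrier of the brush border of gut and kidney, was at 19.6 and 18.8 CPM in chow and at 8.99, 13.2 and 9.63 CPM on the high-fat diet. Every high-fat value was below both chow values (log2 -0.82 ± 0.16, SE, limma adjusted p = 0.0143). The call ended without chow replicate 1 (0.0636), without high-fat replicate 3 (0.0521) and with no filter (0.0633). Slc6a15, a carrier of branched-chain amino acids and proline in neurons, was at 2.59 and 2.15 CPM in chow and at 0.971, 1.11 and 0.298 CPM on the high-fat diet. It fell by 0.94 ± 0.24 on the log2 scale (SE, limma adjusted p = 0.0318), beside the glial and neuronal markers given for Slc38a1. At its low level the log2 fold change depends on the pseudocount. It was -1.43 with 0.25 CPM added and -0.66 with 2 CPM added. Leaving out any 1 library ended the call of Slc6a15 (0.0508 to 0.138), as did the acinar covariate (0.118) and no filter (0.135), where the log2 fold changes were -0.95 and -0.94.

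Slc6a6 and Slc6a8, which carry taurine and creatine and not protein-building amino acids, did not pass the test. Slc6a6 was at 239 and 240 CPM in chow and at 237, 267 and 258 CPM on the high-fat diet (log2 0.08 ± 0.10, SE, limma adjusted p = 0.574). Slc6a8 was at 15.8 and 19.5 CPM in chow and at 17.8, 18.4 and 19.1 CPM on the high-fat diet (0.06 ± 0.11, limma adjusted p = 0.705). Under acinar-free scaling, Slc6a6 was at -0.48 (0.00712), or -0.06 less the median of all genes. Slc6a4, the serotonin carrier, lay between 0.429 and 1.67 CPM, with overlap.

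Of the SLC1 family, 5 of 7 genes were tested and none passed. Slc1a4, a serine and alanine exchanger, was at 10.3 and 9.56 CPM in chow and at 14.9, 8.10 and 16 CPM on the high-fat diet (log2 0.31 ± 0.26, SE, limma adjusted p = 0.424). High-fat replicate 2 lay below the chow libraries, and the value was 0.59 (0.0387) without it, 0.19 (0.679) without high-fat replicate 1 and 0.14 (0.754) without high-fat replicate 3. Slc1a5, the glutamine exchanger ASCT2, was at 7.92 and 4.13 CPM in chow and at 3.95, 2.31 and 3.38 CPM on the high-fat diet (-0.70 ± 0.28, limma adjusted p = 0.106). Its libraries were highest in chow replicate 1 and lowest in high-fat replicate 2, as the acinar markers were. Unlike those markers, it was higher in chow replicate 3 than in high-fat replicate 1. The part of the acinar transcripts in Slc1a5 was not tested. The value was -1.10 (0.0285) without chow replicate 3, -0.30 (0.489) without chow replicate 1 and -0.23 (0.556) with the acinar covariate. The glutamate carriers Slc1a1, Slc1a2 and Slc1a3 lay between 0.468 and 2.24 CPM. From the highest to the lowest library, Slc1a3 followed the order of the acinar markers. The retinal and cerebellar forms Slc1a7 and Slc1a6 averaged 0.139 and 0.0853 CPM, too low to test.

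Of the proton-coupled carriers of SLC36, 2 of 4 were tested and none passed. Slc36a1, which lets small amino acids out of lysosomes, was at 49.2 and 55.1 CPM in chow and at 46.7, 52.8 and 51.5 CPM on the high-fat diet, with overlap (log2 -0.05 ± 0.09, SE, limma adjusted p = 0.72). Slc36a4, a carrier of proline and tryptophan, was at 27.5 and 33.6 CPM in chow and at 38.3, 42.7 and 36.9 CPM on the high-fat diet, without overlap (0.36 ± 0.11, limma adjusted p = 0.0611). The value was 0.50 (0.0228) without chow replicate 3 and 0.22 (0.243) without chow replicate 1.

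In SLC43, 2 of 3 genes were tested and 1 fell. Slc43a3, which carries nucleobases and not amino acids, was at 16.4 and 18.7 CPM in chow and at 6.97, 7.52 and 9.21 CPM on the high-fat diet. The groups did not overlap, with means of 17.5 ± 1.65 and 7.90 ± 1.17 CPM (SD, n = 2 and 3) and a log2 fold change of -1.06 ± 0.14 (SE, limma adjusted p = 0.00346). It was the only member called under all 15 alternative settings, with limma adjusted p from 0.00037 to 0.0235. Endothelial markers, of which 1 of 5 fell, summed to 295 and 328 CPM in chow and to 234, 287 and 271 CPM on the high-fat diet, and fibroblast markers, of which 5 of 7 fell, to 217 and 119 CPM and to 36.2, 43.8 and 69.3 CPM. None of these markers was at 0, and their part in the fall was not tested. Slc43a2, the leucine carrier LAT4, was at 172 and 194 CPM in chow and at 197, 200 and 217 CPM on the high-fat diet, without overlap (0.16 ± 0.10, limma adjusted p = 0.274). The ratio of Slc43a3 to Slc43a2 was 0.0954 and 0.0964 in chow and 0.0354, 0.0376 and 0.0423 on the high-fat diet, a description chosen after the values were seen.

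**Figure D4:**
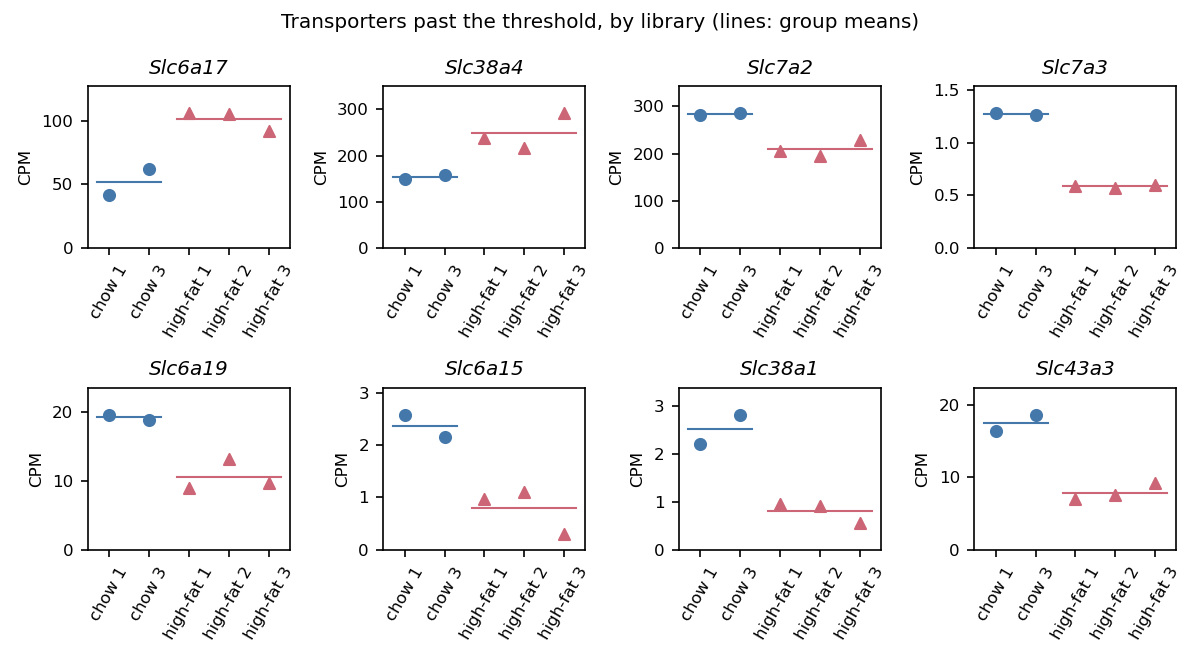
CPM of the 8 called members in each library from 0, with chow libraries as blue circles, high-fat diet libraries as red triangles and lines at the group means (n = 2 and 3). Slc6a17 and Slc38a4 are higher in all 3 high-fat libraries, and the other 6 are lower in all 3.

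The 21 members below the limit of testing averaged 0.0441 to 0.482 CPM. A count of 3 reads corresponds to 0.0856 to 0.160 CPM, depending on the library, and 5 of the 21 reached it in every library and 2 in none. They include the GABA carriers Slc6a11, Slc6a12 and Slc6a13, the dopamine and noradrenaline carriers Slc6a3 and Slc6a2, the glycine carrier Slc6a5, and the light chains Slc7a9, Slc7a10, Slc7a12 and Slc7a13. Others were Slc6a7, Slc6a14, Slc6a16, Slc6a18, Slc7a15, Slc36a2, Slc36a3, Slc43a1, Slc1a6 and Slc1a7. The highest was Slc6a11, at 0.106 and 0.527 CPM in chow and at 0.844, 0.509 and 0.422 CPM on the high-fat diet. When the filter on low genes was dropped, all 21 were fitted and none passed (limma adjusted p = 0.147 to 0.999). Slc7a15 was at 0.160 and 0.356 CPM in chow and at 0.593, 0.717 and 0.553 CPM on the high-fat diet, without overlap (log2 0.37, limma adjusted p = 0.197 in that fit).

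Genes that use, sense or respond to amino acids moved in both directions, with shares to be read beside the 14.9% of all genes that rose and the 8.78% that fell. Of 22 genes of the ATF4 and amino acid response, 2 rose and 2 fell, with a median log2 fold change of -0.08. Ddit3, a stress transcription factor downstream of ATF4, fell from 18.4 ± 0.352 to 9.56 ± 1.48 CPM (SD, n = 2 and 3, log2 -0.89 ± 0.14, limma adjusted p = 0.00589). Vldlr, a lipoprotein receptor, fell (-0.53 ± 0.12), and Cebpb, a partner of ATF4, rose (0.79 ± 0.19). The calls of Vldlr and Cebpb held under 10 and 8 of the 15 alternatives. Atf4 itself was at 127 and 172 CPM in chow and at 201, 159 and 179 CPM on the high-fat diet, with overlap (0.27 ± 0.16, limma adjusted p = 0.241).

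Of 27 tested genes of amino acid sensing by mTORC1, 5 rose and 2 fell, with a median of 0.13. Sec13, a subunit of the GATOR2 complex and of vesicle coats, went from 30.1 ± 2.21 to 46.5 ± 0.555 CPM (log2 0.61 ± 0.08, limma adjusted p = 0.00362), and Wdr59, another GATOR2 subunit, rose by 0.61 ± 0.15. Lamtor2, a part of the Ragulator that holds mTORC1 at the lysosome, fell by 0.41 ± 0.10. Of the 15 alternatives, 14 kept the call of Sec13, 8 that of Wdr59 and 9 that of Lamtor2, and the calls of Sec13 (0.536) and Wdr59 (0.709) ended under acinar-free scaling.

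Of 14 tested genes of glutamate, glutamine and GABA metabolism, 3 rose and none fell, with a median of 0.12. Aldh18a1, which takes glutamate towards proline, rose by 0.58 ± 0.10 (SE, limma adjusted p = 0.00793), and Aldh5a1, the last step of GABA breakdown, by 0.33 ± 0.08. Under acinar-free scaling both calls ended, and Aldh5a1 was at -0.22. Of the 15 alternatives, 14 kept the call of Aldh18a1 and 6 that of Aldh5a1.

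Of 17 tested genes of branched-chain amino acid breakdown, 3 rose and 2 fell, with a median of 0.01. Bckdhb, a subunit of the branched-chain dehydrogenase, rose by 0.65 ± 0.12 (SE, limma adjusted p = 0.01) and Auh, a leucine breakdown enzyme, by 0.37 ± 0.08. Dld, the shared subunit of several dehydrogenases, fell by 0.50 ± 0.09 (limma adjusted p = 0.00932). The calls of Bckdhb and Auh ended under acinar-free scaling, where Auh was at -0.17, and that of Dld with the acinar score as a covariate (0.055).

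Of 16 tested genes of arginine, ornithine and polyamine metabolism, 1 rose and 4 fell, with a median of -0.21. Ass1, which makes the precursor of arginine from citrulline, was at 14.1 and 18.1 CPM in chow and at 5.25, 4.54 and 7.76 CPM on the high-fat diet. It fell by 1.34 ± 0.21 (SE, limma adjusted p = 0.00706) and passed under all 15 alternative settings. Odc1, which makes putrescine, fell by 0.47 ± 0.10, and Srm, spermidine synthase, rose by 0.44 ± 0.11, and the rise of Srm was called under 5 of the 15 alternatives. Of 6 tested carriers of amino acids and peptides outside these families, none passed in limma.

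Across the 15 alternative settings, all 8 called members were tested in 14 and 7 of them in the other. Each kept its direction wherever it was tested. The diets did not overlap in any of the 8, so most settings could not turn a direction. Only the other scalings and the acinar covariate could have done so. How many of the 8 were called ran from 1, with no filter on low genes, to 8.

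**Figure D5:**
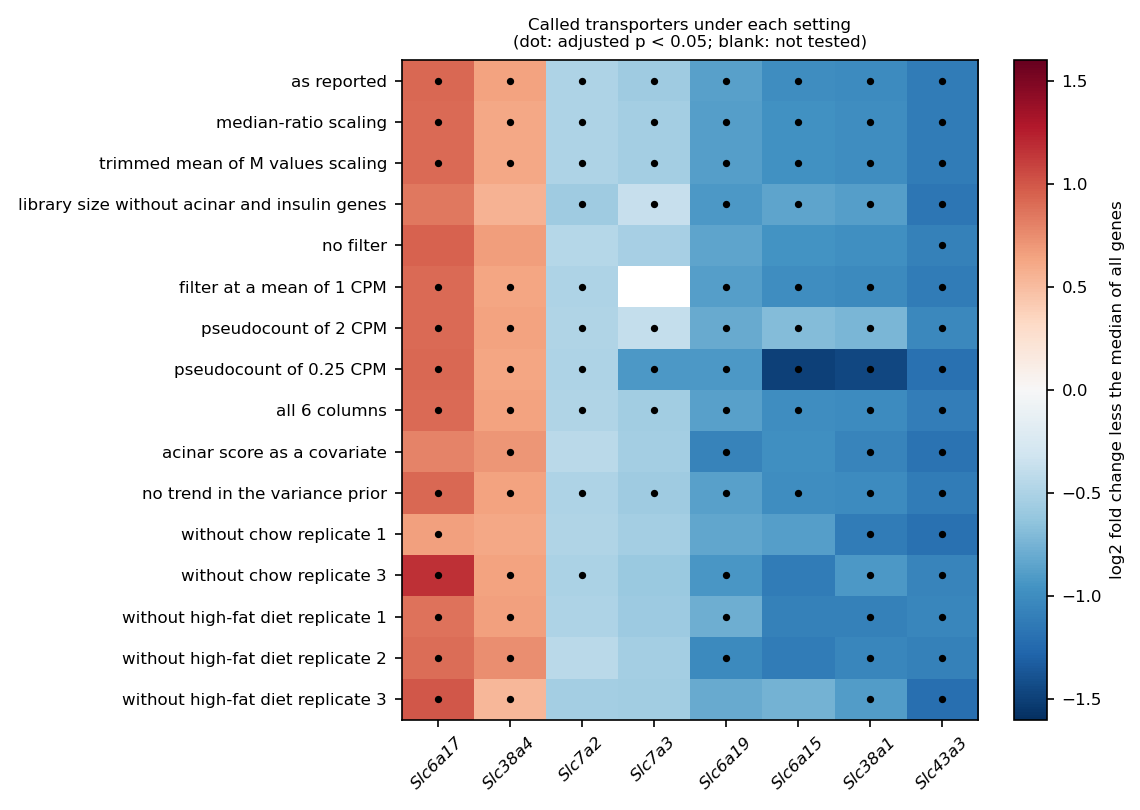
Log2 fold change less the median of all genes (colour scale) for the 8 called members, in columns, as reported and under each of 15 alternative settings, in rows; a dot marks a limma adjusted p below 0.05 and a blank a gene not tested. Slc6a17 and Slc38a4 stay on the higher side and the other 6 on the lower side throughout, while dots are missing most often for Slc7a3 and Slc6a15.

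Annotated neighbours limit some of these values, since the strand setting of the read assignment is not given in the sources used here. In GENCODE M21 a gene on the opposite strand overlapped 31.9% of the exon bases of Slc1a1, 27.8% of those of Slc6a9 and 26.5% of those of Slc3a1. The overlap was 17.9% for Slc7a10, 13.3% for Slc7a4, 9.18% for Slc43a2, 7% for Slc7a7 and 6.95% for Slc7a2. Every other member had a smaller overlap or none. Of the called members, only Slc7a2 had exon bases overlapped. Of the 31-base words of Slc38a6, 40.7% also occurred in other genes, and of those of Slc38a1, 6.94%.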

How the data were processed

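RNA from isolated islets was sequenced and the table was made by the authors with Partek, per the submitters' processing notes. Aligner, build, read assignment and library kit: not given in the sources used here. No unit is named in the file. The deposited signal had a lowest value of 1 in every column and was read as CPM plus 1, since low values less 1 sat mostly on multiples of 1 step per library, and 1 was subtracted. Among values of at most 20 reads, 64.6% to 70% lay within 0.1 of a whole read, and no count model was used.

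Samples were grouped by the diet label and not by the treatment text, which names the high-fat diet for the chow samples too. The 16939 genes averaging 0.5 CPM or more over 5 libraries entered a limma fit (version 3.58.1, under R 4.3.3) of log2(CPM + 1), with an intensity trend for the prior variance and Benjamini-Hochberg adjustment over all of them. The added 1 shrinks the fold changes of low genes. Single values had exact permutation tests. On simulated data for this comparison and 16939 genes, recovery was 59% for 100 genes given a log2 fold change of 1. It was 89% for 100 given 2, and 5 of 153 calls were false. These rates describe the simulated data only. Whether they hold for low genes such as Slc38a1, Slc6a15 and Slc7a3 was not tested. Nor was it tested for libraries that differ in acinar share and Rn7sk as these do. Alternatives were other scalings, filters and pseudocounts, all 6 columns, an acinar covariate, no trend and leaving out each library.

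Members, lists and named genes were chosen with earlier results of these data known. The text names members past or near the threshold, the 10 most abundant, the most abundant of each family, and up to 3 genes of each related list. Further members were named after their values were seen. Some genes of these families are not reported here. All 58 names matched mouse symbols. Of the amino acid sensing list, 2 genes were not matched to a name in the table.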

Additional observations from a re-analysis of the deposited data

How the results depend on the processing

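Every called member kept its direction under each alternative that tested it, though only the other scalings and the acinar covariate could have turned it. Under acinar-free scaling, 0 members were higher and 20 lower (4.43% and 54.0% of all genes, 0 and 59 genes of the related lists). The log2 fold change turned to -0.21 for Slc1a4, -0.19 for Slc36a4, -0.26 for Slc38a10, -0.29 for Slc38a2, -0.42 for Slc3a2, -0.40 for Slc43a2, -0.48 for Slc6a6, -0.05 for Slc7a1, -0.27 for Slc7a14, -0.16 for Slc7a6 and -0.41 for Slc7a8, and the summed CPM difference to -645. That scaling moved the median of all genes to -0.43. Less that median, Slc1a4, Slc36a4, Slc38a10, Slc38a2, Slc7a1, Slc7a14 and Slc7a6 stayed above 0, from 0.13 to 0.37. Slc3a2, Slc7a8 and Slc43a2 were at 0.01, 0.02 and 0.03, and Slc6a6 was at -0.06. With no filter, 0 members were higher and 1 lower (2.74% and 1.46% of all genes, 5 and 3 of the lists), where 39352 genes were tested. With all 6 columns, which count the mean column as a replicate, 7 members were higher (25% and 16.7% of all genes, and 19 of the lists lower). With the acinar score as a covariate, 3 members were lower (5.67% and 3.51% of all genes, 6 and 2 of the lists), Slc38a3 was at 0.59 and Slc6a9 at 0.70. The lists gave 8 higher with median-ratio scaling, 7 with trimmed mean of M values scaling, and 7 higher and 6 lower with no trend. Of all genes, 11.8% were higher and 11.5% lower under median-ratio scaling, 11.1% and 11.9% under trimmed mean of M values scaling, where Slc6a6 was at -0.01, and 14.9% and 8.78% as reported. Without 1 library, 1 to 6 members were higher and 2 to 5 lower, 6.91% to 17.5% and 4.04% to 8.32% of all genes, and 4 to 15 and 3 to 15 of the lists. Over these fits Slc36a1 lay from -0.13 to 0.03, Slc38a2 from -0.00354 to 0.54 and Slc6a9 from -1.34 to 0.33. Leaving out 1 chow library left 1 chow sample, assumed to vary like the other group. The cause of these shifts was not tested. No paired analysis was possible because the labels give no replicate numbers shared between the diets.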
